A study of Mus musculus with 6 samples.

Results

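The small leucine-rich proteoglycans measured here were decorin (Dcn), biglycan (Bgn), lumican (Lum), fibromodulin (Fmod), osteoglycin (Ogn), osteomodulin (Omd), Prelp, asporin (Aspn) and podocan (Podn). They were taken by gene symbol, and all 9 were found among the 17491 genes of the count table. RNA-seq had been run on 3 verapamil-treated and 3 control samples of mouse osteoblasts. Both groups were wild type, had been derived from marrow mesenchymal stem cells of tibia and femur, and were sampled at day 7 of culture with ascorbic acid, β-glycerophosphate and dexamethasone, which drive bone formation. Verapamil blocks L-type calcium channels, and the labels give neither its dose nor the length of exposure. They do not say whether libraries of a group came from separate animals or cultures, so p-values here measure only the spread between these libraries, which may be technical.

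Small leucine-rich proteoglycans are secreted proteins whose curved leucine-rich repeat domain binds collagen fibrils and sets their diameter and spacing. Many carry chondroitin, dermatan or keratan sulfate chains, and several bind TGF-β and related growth factors in the matrix. In bone, biglycan and decorin are abundant products of osteoblasts, and osteomodulin is a marker of the mature osteoblast.

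Several of these genes lie next to each other in the genome. In GRCm38, Prelp (Entrez 116847, chr1:133910304-133930102, minus strand) and Fmod (Entrez 14264, chr1:134037254-134048280, plus strand) were 107.2 kb apart. Dcn (Entrez 13179, chr10:97479500-97518163) and Lum (Entrez 17022, chr10:97565501-97572703) were separated by 47.3 kb. Aspn (Entrez 66695, chr13:49544443-49567565), Omd (Entrez 27047, chr13:49582462-49592612) and Ogn (Entrez 18295, chr13:49608015-49624501) followed one another with gaps of 14.9 and 15.4 kb. Bgn (Entrez 12111, chrX:73483601-73495936) and Podn (Entrez 242608, chr4:108014793-108031954, minus strand) stood apart from other members. The chromosome 10, chromosome 13 and X members are on the plus strand. The chromosome 13 trio lies inside the span of Cenpp, a centromere protein gene on the opposite strand (chr13:49464025-49652950). Only Aspn shared exon bases with it in the GENCODE annotation, 7 of them, and Prelp shared 350 exon bases with the opposite-strand transcript Gm15851. Whether counting used the strand is not stated in the labels, and without it reads of both genes in those stretches cannot be told apart.

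RefSeq promoter sequences of GRCm38.p6 covered 7 of the 9 members, as 8 windows of 250 bases before to 50 bases after the start. Shown are those of the chromosome 13 neighbours, whose ratios to each other did not overlap between the groups, and that of Fmod, which had the largest log2 fall of the 9. All run 5′ to 3′ on the plus strand, at chr13:49544193-49544492 (Aspn), chr13:49582212-49582511 (Omd), chr13:49607765-49608064 (Ogn) and chr1:134037004-134037303 (Fmod). Capitals mark matches, on either strand, to a TATA box (TATAAA), a RUNX site (TGTGGT), a TEAD site (CATTCC), an AP-1 site (TGANTCA) or a GC box (GGGCGG).
Aspn: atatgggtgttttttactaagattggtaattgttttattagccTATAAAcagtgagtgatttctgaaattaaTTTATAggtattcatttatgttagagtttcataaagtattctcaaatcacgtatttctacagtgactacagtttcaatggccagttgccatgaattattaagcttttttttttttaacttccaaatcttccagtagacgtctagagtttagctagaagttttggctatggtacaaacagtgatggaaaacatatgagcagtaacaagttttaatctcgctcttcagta
Omd: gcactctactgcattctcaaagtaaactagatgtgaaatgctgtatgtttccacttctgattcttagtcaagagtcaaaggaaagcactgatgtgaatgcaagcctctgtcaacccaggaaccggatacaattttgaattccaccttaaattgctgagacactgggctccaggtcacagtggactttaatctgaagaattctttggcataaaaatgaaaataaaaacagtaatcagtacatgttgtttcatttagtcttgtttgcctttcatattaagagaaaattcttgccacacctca
Ogn: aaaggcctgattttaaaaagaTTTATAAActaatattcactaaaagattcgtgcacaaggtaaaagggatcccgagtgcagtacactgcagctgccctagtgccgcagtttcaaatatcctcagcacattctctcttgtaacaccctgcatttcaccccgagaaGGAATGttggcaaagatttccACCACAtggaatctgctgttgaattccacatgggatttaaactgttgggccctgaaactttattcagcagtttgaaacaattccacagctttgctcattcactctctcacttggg
Fmod: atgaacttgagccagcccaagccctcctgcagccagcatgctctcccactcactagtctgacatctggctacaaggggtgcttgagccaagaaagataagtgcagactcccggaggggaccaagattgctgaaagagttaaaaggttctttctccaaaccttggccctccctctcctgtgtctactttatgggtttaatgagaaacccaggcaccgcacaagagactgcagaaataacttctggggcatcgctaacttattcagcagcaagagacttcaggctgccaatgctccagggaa
The Ogn window held TATA matches on both strands, which overlap, 229 and 227 bases before the start. It also held a TEAD match 86 bases before the start and a RUNX match 65 bases before it. The Aspn window held TATA matches 207 and 178 bases before the start. The Omd and Fmod windows held none of these letters. Among all 32851 promoter windows of this length, 13.6% held a TATA match, 16.8% a RUNX match, 14.7% a TEAD match, 7.81% an AP-1 match and 35.7% a GC box match. Of the 8 member windows, 2 held a TATA match, 1 a RUNX match, 1 a TEAD match, 2 a GC box match and none an AP-1 match. These matches describe the letters only.

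Library totals ran from 18227793 to 21705960 estimated counts. Control libraries were less alike than verapamil libraries: tested genes deviated from their group mean by a root mean square of 0.144 to 0.153 on the log2 scale in the verapamil libraries, and by 0.162, 0.246 and 0.220 in control replicates 1, 2 and 3. Control replicate 2 stood farthest out, and member results are given below with and without it where it changes a call. Osteoblast markers were present, and 10 of 11 were lower with verapamil while 1, Spp1 (log2 fold change 0.25), did not pass. Ifitm5, a marker of mature osteoblasts, was under 1 CPM in every library. The summed level of the 11 was 27276 to 27394 CPM in verapamil libraries and 44857 to 57236 CPM in controls (CPM, counts scaled to a common library total after TMM normalisation). Of this, Spp1 alone had a mean of 11651 CPM with verapamil and 9785 CPM in controls. Macrophage markers moved the other way, with 9 of 12 higher, none lower and sums of 16878 to 18966 CPM in verapamil libraries and 9438 to 11857 CPM in controls. Lyz2 alone had a mean of 11197 CPM with verapamil and 5536 CPM in controls. Mrc1 (-0.003), Cd163 (-0.066) and Csf1r (0.252) did not pass. In bulk RNA, fewer cells of a type and less RNA per cell cannot be told apart.

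Most of the proteoglycan RNAs were lower with verapamil. Of the 9 genes, 7 fell, none rose, and Lum and Ogn did not pass the test (edgeR quasi-likelihood test, Benjamini-Hochberg adjusted p under 0.05 over all 13366 tested genes). All 9 passed the filter on low counts. Over all tested genes 16.3% were called lower, 15.4% higher and 31.7% in either direction. Fmod, Prelp and Aspn fell by at least 1 on the log2 scale, as did 2.87% of tested genes. With libraries scaled by their totals alone 63.7% of the called genes were higher, against 48.5% with TMM scaling. The 7 falls passed under both scalings. The median log2 fold change of the 9 was -0.86, and that of all tested genes 0.01. In the same 7 genes every verapamil value lay below every control value, a pattern seen in 24.4% of tested genes, while 49.6% did not overlap in either direction. Together the 9 took 0.364% to 0.381% of all counts in verapamil libraries and 0.493% to 0.526% in controls.

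**Figure D1:**
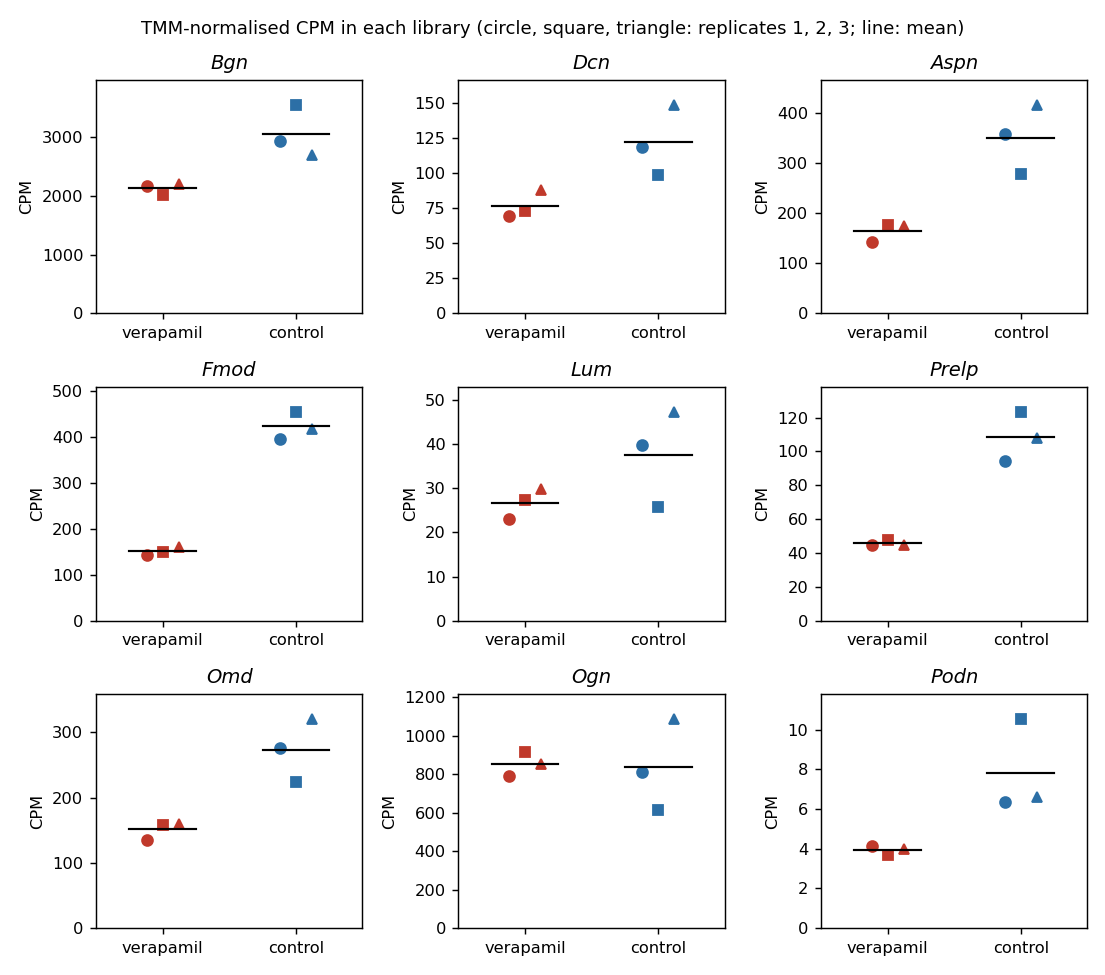
Level of each proteoglycan gene in TMM-normalised CPM (vertical axes, from 0) in the 3 verapamil and 3 control libraries, 1 symbol per library and a line at each group's mean. The groups do not overlap except for Lum and Ogn.

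Biglycan, the class I proteoglycan with chondroitin or dermatan sulfate chains that is most abundant in bone, was the most abundant member in every library, also per length. It had 2171, 2019 and 2196 CPM in verapamil replicates 1, 2 and 3, against 2920.3, 3543 and 2698 CPM in controls. The groups did not overlap, and the verapamil mean was 69.7% of the control mean. Its log2 fold change was -0.52 ± 0.11 (SE, n = 3 per group), with adjusted p = 0.0102 by edgeR. Without verapamil replicate 2 Bgn no longer passed, at -0.49 with adjusted p = 0.0564.

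Decorin, the close relative of biglycan that sits on collagen fibrils and binds TGF-β, was also less abundant per length. It had 69.5, 73.1 and 87.6 CPM in verapamil libraries, against 118, 98.4 and 149 CPM in controls. All verapamil values were lower, by a log2 fold change of -0.67 ± 0.16 SE (edgeR adjusted p = 0.0186). The call was lost without verapamil replicate 1 (-0.61, adjusted p = 0.0700), verapamil replicate 2 (-0.64, adjusted p = 0.0703) or control replicate 1 (-0.69, adjusted p = 0.0501).

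Asporin, a class I protein with an aspartate-rich end that binds calcium and competes with decorin for collagen, fell too. It had 142, 176 and 173 CPM in verapamil libraries, against 357, 278 and 416 CPM in controls. The highest verapamil library was under the lowest control, control replicate 2. The log2 fold change was -1.10 ± 0.15 SE (edgeR adjusted p = 0.00249), and the call held without each library in turn (adjusted p up to 0.0148).

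Fibromodulin, a class II proteoglycan that carries keratan sulfate and steers collagen fibril growth and crosslinking, had the largest log2 fall of the 9. It had 143, 149 and 160.0 CPM in verapamil libraries, against 396, 454 and 418 CPM in controls. Within each group the libraries were close, and the verapamil mean was 35.7% of the control mean. The log2 fold change was -1.49 ± 0.07 SE (edgeR adjusted p = 5.75e-05) and ran from -1.54 to -1.44 with each library left out.

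Prelp, a class II protein whose basic end binds heparan sulfate, had the second largest fall. It had 44.6, 47.6 and 44.9 CPM in verapamil libraries, against 94.5, 123 and 108 CPM in controls. The verapamil values lay within a narrow band at less than the lowest control value, control replicate 1. Its log2 fold change was -1.25 ± 0.10 SE (edgeR adjusted p = 1.56e-04).

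Osteomodulin, a keratan sulfate proteoglycan of the mineralised matrix made by osteoblasts, had 135, 159 and 160.0 CPM in verapamil libraries, against 276, 223 and 320.2 CPM in controls. The groups were apart, with control replicate 2 the nearest to the verapamil libraries. The log2 fold change was -0.86 ± 0.13 SE (edgeR adjusted p = 0.00341), and the call held without each library in turn (adjusted p up to 0.0195).

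Lumican, the class II relative of fibromodulin known for keeping collagen fibrils regular in cornea and skin, had 23.1, 27.4 and 29.9 CPM in verapamil libraries, against 39.7, 25.7 and 47.3 CPM in controls. Control replicate 2 lay among the verapamil values and the other two controls above them. The log2 fold change was -0.49 ± 0.22 SE, with a 95% interval of -1.01 to 0.03 (edgeR adjusted p = 0.135). Without control replicate 2 it was -0.70 and passed (adjusted p = 0.00249), and with all libraries it passed by DESeq2 (adjusted p = 0.0426).

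Osteoglycin, also called mimecan, a class III member, was the second most abundant per length and did not pass the test. It had 792, 918 and 852 CPM in verapamil libraries, against 814, 616 and 1087 CPM in controls. The verapamil values all lay within the range of the controls. The log2 fold change was 0.03 ± 0.19 SE, with a 95% interval of -0.42 to 0.47 (edgeR adjusted p = 0.936). It turned to -0.16 without control replicate 2 (adjusted p = 0.353) and to -0.03 without verapamil replicate 2 (adjusted p = 0.933).

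Podocan, a class V member first known from kidney and vessel wall, was the least abundant per length. It had 4.15, 3.70 and 4.0 CPM in verapamil libraries, against 6.34, 10.5 and 6.61 CPM in controls. Every control was higher than every verapamil library, and control replicate 2 was the highest. The log2 fold change was -0.98 ± 0.21 SE (edgeR adjusted p = 0.00905). Its smallest count was 77.7 estimated reads, for which counting alone gives an error of 11.3%, against at most 4.80% for the other members.

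**Figure D2:**
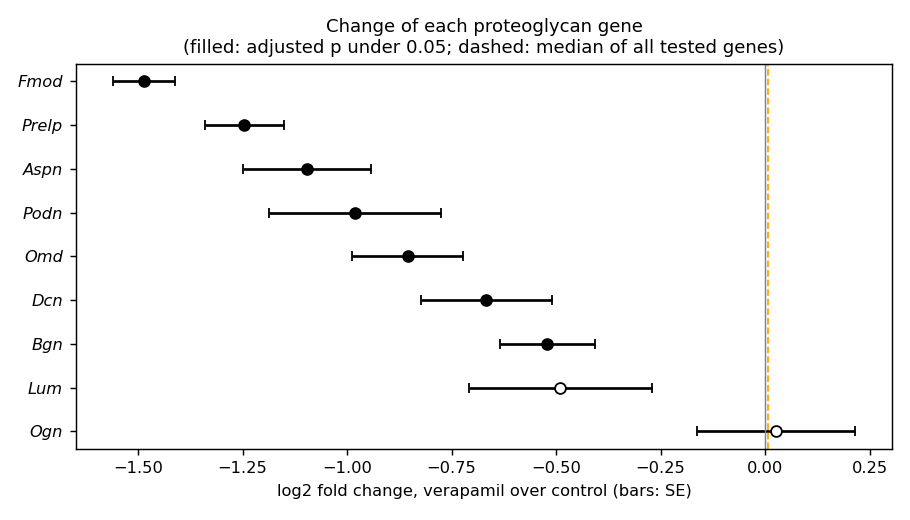
Log2 fold change of verapamil over control for the 9 genes (horizontal axis, bars are SE), from the largest fall at the top, Fmod at -1.49, to Ogn at 0.03. Filled points passed the test, and the dashed line is the median of all tested genes at 0.01.

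Per kilobase of the longest coding transcript, Bgn and Ogn led in both groups. Bgn stood at 880.0 ± 39.6 CPM per kb with verapamil and 1262 ± 181 in controls, and Ogn at 333 ± 24.7 with verapamil and 327 ± 92.1 in controls (SD, n = 3). Aspn was at 70.4 ± 8.05 with verapamil and 150.4 ± 29.8 CPM per kb in controls. Omd stood at 67.1 ± 6.36 with verapamil and 121 ± 21.5 in controls, and Fmod at 48.3 ± 2.72 with verapamil and 135 ± 9.42 in controls. In the controls the ranges of Aspn, Omd and Fmod overlapped one another. In the verapamil libraries those of Aspn and Omd overlapped while Fmod lay below both. Within every library, however, Aspn was above Omd. Dcn was at 43.7 ± 5.44 with verapamil, its range overlapping that of Fmod, and at 69.3 ± 14.4 CPM per kb in controls, where it lay below Fmod. Within each verapamil library Dcn was below Fmod too. Prelp, Lum and Podn closed the order in both groups, at 12.6 ± 0.466, 10.9 ± 1.41 and 1.25 ± 0.0719 CPM per kb with verapamil and at 30.0 ± 3.98, 15.4 ± 4.47 and 2.47 ± 0.738 in controls.

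Ogn made up 21.5%, 24.6% and 22% of the summed length-scaled level of the 9 in verapamil libraries, against 15.6%, 11% and 19.9% in controls. Fmod took 3.20%, 3.28% and 3.39% in verapamil libraries and 6.22%, 6.70% and 6.29% in controls. Bgn took most in every library, 57.4% to 62.5% with verapamil and 52.4% to 67.4% in controls. For Bgn, Dcn, Lum and Omd the ranges overlap, and for Ogn, Fmod, Aspn, Prelp and Podn they do not. On their own level 49.6% of tested genes did not overlap in either direction, and no such figure was taken for shares. Aspn, Prelp and Podn took less in every verapamil library than in any control. Shares within a library are tied to each other, so that of Ogn rises when other members fall. The log2 fold change of Ogn itself was 0.03. The summed length-scaled level of the 9 was 1435.5 to 1512 CPM per kb in verapamil libraries and 2039 to 2173 CPM per kb in controls.

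Because these proteins coat collagen, each was also set against Col1a1, the main chain of type I collagen, within the same library. Col1a1 fell to 5387 ± 539.6 CPM in verapamil libraries, against 17067 ± 4439 CPM in controls. The log2 ratio of every member to Col1a1 was higher on average with verapamil, by 0.15 for Fmod, 0.40 for Prelp, 0.56 for Aspn, 0.71 for Podn, 0.79 for Omd, 0.99 for Dcn, 1.13 for Bgn, 1.19 for Lum and 1.70 for Ogn. For Fmod, Prelp and Aspn the groups overlapped (exact permutation test, two-sided, p = 0.4, 0.2 and 0.3). For the other 6 every verapamil ratio lay above every control ratio, each with p = 0.1 by the exact permutation test, the smallest that 3 libraries against 3 allow, and adjusted over the 9 ratios p = 0.15. Of all other tested genes 97.2% had ratios to Col1a1 that lay above the controls in the same way, and the median gene's ratio was higher by 1.65, so the 6 of 9 are no feature of the proteoglycans. Without control replicate 2, the library with the most Col1a1, the difference was 0.001 for Fmod, 0.19 for Aspn, 0.45 for Omd, 0.64 for Dcn and 0.73 for Lum. Without control replicate 3 that of Fmod was 0.27.

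The members were also set against 12 mesenchymal stroma markers. Of these markers 6 were lower and 3 higher with verapamil, with a median of -0.30, and 1 was higher without any 1 of verapamil replicates 1, 2 and 3. Relative to the list's mean, the difference was -1.32 for Fmod, -1.07 for Prelp, -0.92 for Aspn, -0.77 for Podn, -0.68 for Omd, -0.49 for Dcn and -0.34 for Bgn on the log2 scale. In each of these every verapamil value lay below every control value (exact permutation test, two-sided, p = 0.1, adjusted over the 9 values p = 0.129). Of tested genes outside the list 9.31% lay below the controls on this scale, and the median difference of all tested genes was 0.18. Without control replicate 2 the difference was -0.16 for Bgn (exact permutation p = 0.2) and -0.46 for Podn. With the list's median in place of its mean, that of Bgn was -0.30 (exact permutation p = 0.3). Lum (-0.28, exact permutation p = 0.3) and Ogn (0.23, exact permutation p = 0.4) overlapped between the groups. Without control replicate 2 Lum was at -0.46 and Ogn at 0.10, and without control replicate 3 Lum was at -0.13 and Ogn at 0.40. The summed level of the list was 5451 to 6030 CPM in verapamil libraries and 4051 to 5674 CPM in controls. Its most abundant gene was Cxcl12, 1 of the 3 called higher, with a mean of 3136 CPM with verapamil and 2119 CPM in controls. The sum thus follows Cxcl12 more than the 6 markers that fell. Whether a change in the share of stromal cells took part in the falls was not tested.

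**Figure D3:**
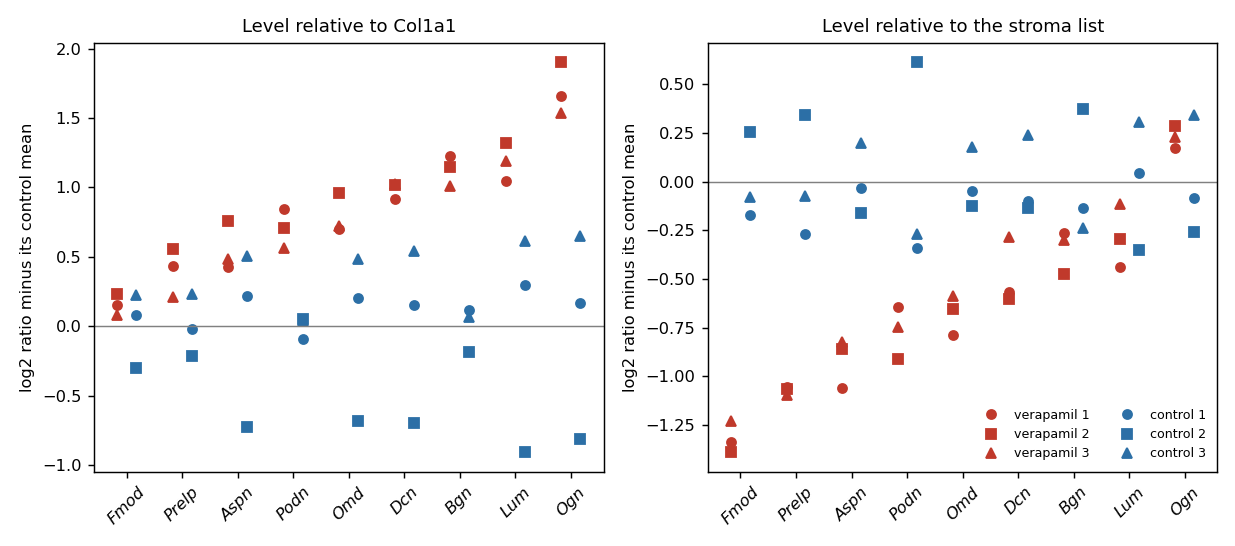
Log2 level of each member relative to Col1a1 (left) and to the mean of the stroma markers (right), with the control mean of each gene set to 0 on the vertical axis and 1 symbol per library. On the left the verapamil symbols lie above all controls for 6 genes, as for 97.2% of all other tested genes, and on the right they lie below all controls for 7, as for 9.31% of tested genes outside the list.

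Ratios between neighbouring genes were taken within each library for 5 pairs. Omd and Ogn are adjacent and on 1 strand, and the log2 ratio of Omd to Ogn was -2.56, -2.53 and -2.41 in verapamil libraries, against -1.56, -1.46 and -1.76 in controls. The groups were fully apart, with a difference of -0.91. The log2 ratio of Omd to its other neighbour Aspn was higher by 0.24 with verapamil, and that of Fmod to Prelp was lower by 0.25. The ratio of Aspn to Ecm2, the family gene 11.7 kb before it, was lower by 0.76. In these 4 pairs the groups did not overlap (exact permutation test, two-sided, p = 0.1, adjusted over 5 pairs p = 0.125). Of 13281 pairs of adjacent tested genes 48.9% did not overlap. The ratio of Lum to Dcn was higher by 0.20 with overlapping groups (exact permutation p = 0.2), and by 0.10 without control replicate 2.

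Among the controls the members showed 2 patterns, by the place of control replicate 2. Control replicate 2 was the lowest control for Dcn and Lum on chromosome 10 and for Aspn, Omd and Ogn on chromosome 13. Its level there was 73.7%, 59.2%, 71.8%, 75% and 64.8% of the mean of the other two controls, in that order. It was the highest control for Bgn (126%), Fmod (112%), Prelp (122%) and Podn (162%), which lie on other chromosomes. Ecm2, the non-member of the chromosome 13 cluster, was also lowest in control replicate 2 (71.6%). These are values of 1 library and carry no test. Over all tested genes control replicate 2 also stood farthest from its group mean (0.246). The share of all tested genes for which it was the lowest or highest control is not given here. No link to chromosome can be read from these values.

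**Figure D4:**
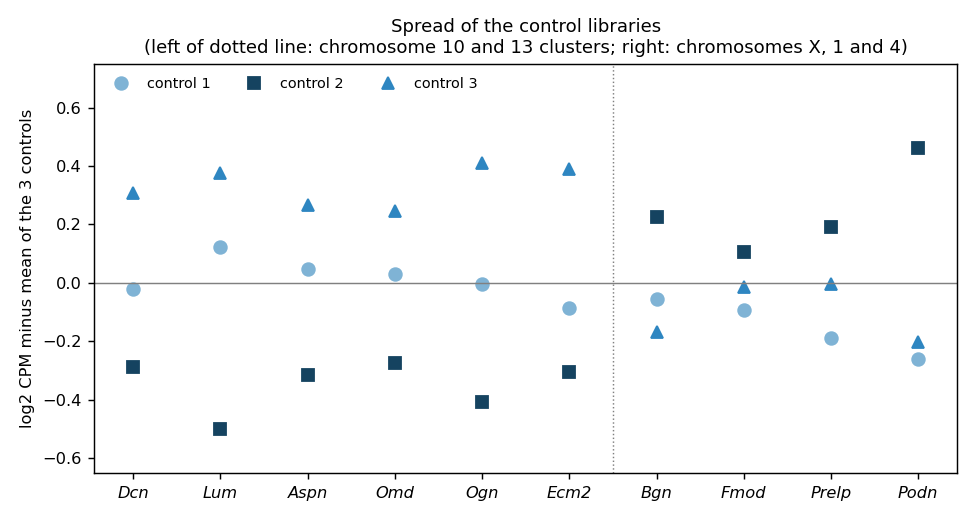
Log2 CPM of each gene in the 3 control libraries minus their mean (vertical axis), with genes of the chromosome 10 and 13 clusters to the left of the dotted line. Control replicate 2 is the lowest control for all 6 genes on the left and the highest for all 4 on the right.

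The size of the difference depends on which control is used. Against control replicate 2 alone, the verapamil mean was 33.2% for Fmod, 37.1% for Prelp, 37.5% for Podn, 59.0% for Aspn, 60.1% for Bgn, 67.6% for Omd, 78.0% for Dcn, 104% for Lum and 139% for Ogn. Against the mean of control replicates 1 and 3 it was 37.0% for Fmod, 42.4% for Aspn, 45.2% for Prelp, 50.7% for Omd, 57.5% for Dcn, 60.9% for Podn, 61.6% for Lum, 75.8% for Bgn and 89.9% for Ogn. With control replicate 2 left out, 8 of the 9 passed the test as lower, Lum being added to the 7.

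By the root mean square difference of centred log2 CPM over the 6 libraries, the members most like each other were Aspn and Omd (0.12), Dcn and Omd (0.13), Fmod and Prelp (0.15) and Dcn and Lum (0.16). Of 10552 genes averaging 5 CPM or more, the nearest to Bgn were Stk40 and Rrbp1 (both 0.02), and the nearest to Aspn was the fibrillin gene Fbn2 (0.04). Pth1r, the parathyroid hormone receptor gene of osteoblasts, was the nearest both to Omd (0.08) and to Dcn (0.10). Nearest to Fmod was Smpd3 (0.10), to Prelp the integrin gene Itga10 (0.07), to Lum Fam167a (0.09) and to Podn Smtn (0.09). Nearest to Ogn were Vegfc and Fzd4 (both 0.05), whose log2 fold changes were 0.05 and -0.02.

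Of 9 other genes of the leucine-rich repeat proteoglycan family, 7 were in the table and 6 were tested. Podnl1, the closest relative of Podn, had 35.6, 30.7 and 36.8 CPM in verapamil libraries, against 51.1, 62.8 and 49.1 CPM in controls. It was the 1 family gene called, at -0.66 ± 0.11 SE (edgeR adjusted p = 0.00354). Tsku, a secreted inhibitor of several signalling pathways, was at -0.42 (adjusted p = 0.0831) and passed without control replicate 3 (adjusted p = 0.0149). Ecm2 was at 7.98 ± 1.19 CPM with verapamil and 10.1 ± 2.61 CPM in controls, a log2 difference of -0.35 (adjusted p = 0.203). Without control replicate 2, Ecm2 (-0.49, adjusted p = 0.0453) and Nyx (-1.15, adjusted p = 0.0203) passed too. Chadl (-0.29), Nyx (-0.76) and Optc (-0.42) were each under 3 CPM in every library and did not pass with all libraries. Chad, a cartilage protein, had at most 3 estimated reads in any library and was not tested.

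The collagens that these proteins bind were lower throughout. All 12 fell, with a median log2 fold change of -1.25, and all 12 passed with each library left out in turn. Besides Col1a1, Col6a3, a chain of the beaded filaments to which biglycan and decorin attach, fell by 1.65 and Col5a1, which starts fibril assembly, fell by 1.47 on the log2 scale. Among 14 genes for collagen crosslinking and propeptide removal, 9 fell and 5 did not pass, with a median of -0.58. The count was 6 without any 1 of verapamil replicates 1, 2 and 3. Lox, the lysyl oxidase that fibromodulin brings to collagen, had 2525, 2369 and 2658 CPM in verapamil libraries, against 6074, 7892 and 4500 CPM in controls. The groups were apart, and Lox (-1.29) and Loxl4 (-1.10) both passed.

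Genes for enzymes that build the sugar chains fell in part. Of 25 genes for the linker and for chondroitin and dermatan sulfate, 14 fell, 2 rose and 9 did not pass, with a median of -0.23. Without verapamil replicate 1, verapamil replicate 3 or control replicate 1, 9 fell, and without any 1 library other than control replicate 3 none rose. Chsy3, a chondroitin synthase, fell by 0.78, and Chst15, which adds sulfate to chondroitin, fell to 24.7 ± 1.69 CPM in verapamil libraries, against 42.4 ± 1.57 CPM in controls. Of 8 tested keratan sulfate genes 5 fell and 3 did not pass, with a median of -0.29, and 3 fell when libraries were scaled by totals alone. Those not past were B4galt4 (0.215), Chst1 (-0.611, edgeR adjusted p = 0.0750) and St3gal3 (-0.115). B3gnt7 and Chst5 were under 1 CPM in every library and were not tested. Chst2, a sulfotransferase, fell by 0.58 and the galactosyltransferase gene B4galt1 by 0.39. Of 8 tested genes for other matrix proteoglycans 5 fell and 3 did not pass, with a median of -0.58, among them Agrn (-0.78) and Spock2 (-1.03).

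Genes for enzymes that cut these proteins, for growth factors they hold and for receptors that sense them gave mixed counts. Of 10 tested enzymes 6 fell, 1 rose and 3 did not pass, with a median of -0.26. The count that fell was 4 without verapamil replicate 1, 2 or 3 or control replicate 1. Adamts4, an aggrecanase, fell to 32.5 ± 1.07 CPM in verapamil libraries, against 59.6 ± 1.39 CPM in controls, and the gelatinase gene Mmp2 fell by 0.70. The 1 that rose was Adamts5, at 67.4 ± 2.69 CPM in verapamil libraries, against 54.9 ± 2.24 CPM in controls (edgeR adjusted p = 0.00728). Of 11 growth factor genes 7 fell, 2 rose and 2 did not pass, with a median of -0.36. With any 1 library left out, 5 to 6 fell. Leaving out verapamil replicate 2 or either of control replicates 1 and 2 left 1 that rose. The morphogen Bmp2 fell by 2.21 and Ccn2, a matrix protein induced by TGF-β, fell by 1.31. The 2 that rose were Igf1, by 1.148, and Bmp6, by 1.185. Bmp6 did not pass without verapamil replicate 2, control replicate 1 or control replicate 2. Of 15 receptors 5 fell, 5 rose and 5 did not pass, with a median of 0.01. Cd14, a co-receptor of the Toll-like receptors that bind soluble biglycan and decorin, and itself a monocyte gene, rose to 63.4 ± 9.89 CPM in verapamil libraries, against 35.7 ± 2.82 CPM in controls. Igf1r, a receptor that decorin binds, fell by 0.58. Without verapamil replicate 1 or 2, 3 receptors fell and 1 rose. Without verapamil replicate 3, 4 fell and 2 rose, and without control replicate 1, 4 fell and 1 rose.

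Other cells that make these proteoglycans were looked for by their markers. Of 10 chondrocyte markers 5 were under 1 CPM in every library, Acan among them. All 5 tested ones fell, and the sums of the 10 were 104 to 144 CPM in verapamil libraries and 284 to 666 CPM in controls. The largest part of these sums was Col2a1, with a mean of 72.4 CPM with verapamil and 338 CPM in controls. Col2a1 (-2.22) did not pass without verapamil replicate 2 (edgeR adjusted p = 0.0506). Of 8 markers of tendon cells and fibroblasts, 5 were under 1 CPM in every library and 2 of 4 tested fell, Scx (-2.20) and Egr1 (-0.98). Mkx (0.30) and Tnmd (0.44) did not pass. The sums were 39.7 to 42.1 CPM with verapamil and 71.0 to 84.2 CPM in controls. Most of this was Egr1, with a mean of 33.1 CPM with verapamil and 65.1 CPM in controls. Adipocyte markers summed to 818 to 982 CPM with verapamil and 577 to 817 CPM in controls, with 1 of 6 tested lower and 2 higher. None was lower without any 1 library other than control replicate 2, and 1 was higher without verapamil replicate 1, 2 or 3. Endothelial markers summed to 46.5 to 47.8 CPM with verapamil and 53.9 to 56.7 CPM in controls, with 2 of 7 lower and 1, Vwf, higher. Vwf did not pass without verapamil replicate 2 (adjusted p = 0.0779) or control replicate 1 (adjusted p = 0.0614). Osteoclast markers summed to 270.9 to 298 CPM with verapamil and 289 to 305.4 CPM in controls. Most of this was Ctsk, with a mean of 236 CPM with verapamil and 268 CPM in controls. Of 4 tested, 1 was lower, Ctsk, and 1 higher, Atp6v0d2. Atp6v0d2 rose by 1.02 (edgeR adjusted p = 0.00797) and passed without each library in turn (adjusted p up to 0.0318). Ctsk (-0.18) did not pass without verapamil replicate 1, 2 or 3 or control replicate 1, nor with scaling by library totals alone (adjusted p = 0.219), and 2 were higher without control replicate 2. Neutrophil markers summed to 1.21 to 1.65 CPM with verapamil and 0.597 to 1.08 CPM in controls, and the 1 tested, S100a8, was higher (1.15, adjusted p = 0.0488). S100a8 did not pass by DESeq2 (adjusted p = 0.101), nor without any 1 library other than control replicate 1. The part of these cells, or of the macrophages above, in the members' falls was not tested.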

How the data were processed

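RNA-seq libraries had been prepared from total RNA with a SMARTER mRNA-seq kit, per the labels' protocols. The authors deposited 1 table of estimated counts per gene and library, a read count per the file headers, not scaled to depth or length; 67.7% of values were not whole (tolerance 0.001). The submitters' processing notes name GRCm38 and mm10. For aligner, counter and strand setting: not given in the sources used here. Counts were rounded, filtered with filterByExpr (minimum count 10, minimum total 15), which left 13366 of 17491 genes, and scaled by TMM. Verapamil was compared with control with edgeR 4.0.16 in R 4.3.3 (robust quasi-likelihood fit, adjusted p under 0.05), tested on simulated data. The SE comes from the F statistic (|log2 fold change| / √F). Ratios within a library used log2 CPM with a prior count of 2. Lengths came from GENCODE and promoters from RefSeq GRCm38.p6. Alternatives used DESeq2 1.42.0, limma 3.58.1, other scalings and filters, and each library left out. Replicates of 1 group differed by more than sampling noise (chi-square per degree of freedom 3.57 to 49.9). Members, lists and naming rule (members, up to 3 of the most changed genes per list, nearest patterns) were chosen with earlier results of these data known.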

Additional observations from a re-analysis of the deposited data

How the results depend on the processing

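Of the 9 members, 7 were called lower, 5 to 8 with a library left out, 8 by DESeq2 and 7 under each other alternative. Lum passed by DESeq2 (-0.49, adjusted p = 0.0426). Log2 fold changes with a library left out ran from -0.80 to -0.50 for Dcn, -0.61 to -0.41 for Bgn, -0.70 to -0.30 for Lum and -0.16 to 0.25 for Ogn, which reversed without verapamil replicate 2 (-0.03) or control replicate 2 (-0.16). Over all genes, 2236 to 5042 were called with a library left out, 1222 to 2590 lower and 1010 to 2452 higher. With the replicate number as a block, 2953 genes were called, 1364 of them higher, and 7 members. No pairing by number was seen: deviations of same-numbered libraries correlated at 0.01, -0.17 and -0.13, and none of the 6 libraries correlated best with its own number. Deviations within a group of 3 are tied to each other, so these values cannot exclude a pairing. Leaving out libraries for the gene lists and the neighbour ratios was chosen after seeing the data. The cause of these shifts was not tested. With 3 libraries a group and a lowest count of 77.7, Podn has the least depth behind its value.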
